A study of Mus musculus with 4 samples.

Results

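Retinoic acid handling was described through 9 genes measured in brain tissue of mice at postnatal day 14. The Aldh1a family genes, grouped here under synthesis, were Aldh1a1, Aldh1a2, Aldh1a3 and Aldh1a7. The others were the cellular binding proteins Crabp1 and Crabp2 and the nuclear receptors Rara, Rxra and Rxrg. All 9 were found as the non-control probes whose RefSeq accession maps to one of these symbols, which gave 10 of 41174 probes and 9 of 18350 symbols. The genes were chosen by function with the dark-reared minus control differences of these 4 arrays already known, so those differences are given as a description, without a test for any of the 9 genes. Of the 9, 6 passed the filter (both arrays of a group had to be well above background) and entered the fit across all genes. Aldh1a3, Crabp2 and Rara did not.

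The tissue was labelled as thalamus and hypothalamus, and 1 total RNA sample was hybridised to each one-colour Agilent array. The dark-reared group (2 samples) came from litters whose dams were placed in a covered cage 1 to 4 days before birth, cared for under dim red light and kept in the dark until the experiment. The control group (2 samples) was raised on 12 h of light and 12 h of dark. The labels call the samples of a group biological replicates. Strain, sex and the number of animals in a sample are not given in the labels, so any p-value measures only the spread between these samples. Dark-reared 2 and control 2 shared 1 slide, and the other arrays were on a slide each, so the difference between those 2 arrays is given as the within-slide value.

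Retinoic acid is made from vitamin A. Retinol is taken up and held by retinol-binding proteins, oxidised to retinaldehyde, and oxidised again by enzymes of the Aldh1a family to retinoic acid. Whether Aldh1a7 takes part was not tested. Crabp proteins carry the acid in the cytosol, Cyp26 enzymes break it down, and in the nucleus it binds RAR receptors that sit on DNA as pairs with RXR receptors. RXR also pairs with other receptors, for thyroid hormone, oxysterols, fatty acids and orphan receptors of the Nr4a group. In the brain the meninges are a known source of Aldh1a2, and the striatum is known for high Rarb and Rxrg.

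A pair of promoter regions is shown because Aldh1a1 and Aldh1a7 are close relatives on 1 chromosome and only one of them stood apart between the groups. The sequences are the 110 bases before a start of each gene, from RefSeq for mouse assembly GRCm38.p6, written 5′ to 3′ on the gene's own strand. RefSeq gives Aldh1a1 a promoter at another start as well, with its window at chr19:20492333-20492632. The start shown was picked because its promoter aligned best with that of Aldh1a7, and the 110 bases are the best-matching stretch of the 250 searched, so the likeness between them is a description. Aldh1a1 lies at chr19:20601858-20601967 on the plus strand and Aldh1a7 at chr19:20727557-20727666 on the minus strand. Capitals mark the bases that differ between them.
Aldh1a1: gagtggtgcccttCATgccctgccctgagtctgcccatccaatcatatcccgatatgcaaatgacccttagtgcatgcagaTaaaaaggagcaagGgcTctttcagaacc
Aldh1a7: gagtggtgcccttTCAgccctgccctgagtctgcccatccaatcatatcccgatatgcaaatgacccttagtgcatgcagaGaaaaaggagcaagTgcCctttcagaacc
Of the 110 aligned bases, 104 were identical and 6 differed, with 0 gaps, an identity of 94.5%. Whether the array probe of one gene also binds the transcript of the other was not tested.

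Retinoic acid receptors bind repeats of a short half-site. Both strands of the RefSeq promoters, each from 250 bases before to 50 after a start, were searched for direct repeats of the half-site AGGTCA, also in the form GGGTCA, in the form AGTTCA and in the form GGTTCA, with 1, 2 or 5 bases between the copies. Among 32851 promoters of all genes, 0.222% held such a repeat with 1 base between, 0.268% with 2 and 0.0974% with 5. Promoters were found for 7 of the 9 genes, in 13 windows, and 0 of the 13 held a match. For the other genes of the pathway, 31 of 41 had promoters, in 46 windows, and 3 held a match. One of these is Rarb, the retinoic acid receptor beta gene. Its last 100 bases before the start are shown because the element in them is the known response element of that receptor's own promoter, at chr14:16575477-16575576 on the minus strand, with the element in capitals.
Rarb: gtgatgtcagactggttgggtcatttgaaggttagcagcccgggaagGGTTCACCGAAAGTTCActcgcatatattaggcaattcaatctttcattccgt
The element starts 53 bases before the start of the gene. A match or its absence describes these letters in these windows only.

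Each array had 43379 non-control spots, and 65.9% to 73.3% of spots were well above background, lowest in control 2. The 75th percentile of the signal was between 764 and 794 on the 4 arrays, and 0 spots were saturated. All levels below are log2 of the processed signal minus that percentile of the same array, so 0 is a probe at the percentile and levels of different probes are not compared. The tissue differed among the samples. The 7 thalamus markers, summed on the linear scale relative to the percentile, came to 7.27 and 22.3 in dark-reared 1 and 2 and to 43.3 and 10.6 in control 1 and 2. The 9 tested of 11 hypothalamus markers came to 3.90, 30.1, 52.3 and 15.7. Here and below, 4 values in a sentence follow that order of samples. Dark-reared 1 was the lowest and control 1 the highest for both lists. All 6 striatum markers were well above background on all 4 arrays although the label names no striatum. Agrp and Sim1, hypothalamus markers, did not pass the filter. The Y-linked gene Ddx3y stood at -0.32, 1.07, -6.54 and 1.18, Eif2s3y at -1.32, 0.87, -6.00 and 0.83, and Kdm5d at -3.40, -1.67, -6.95 and -1.62. Each was lowest in control 1, the only array where it was not well above background. The samples thus differed in Y-linked signal, within the control group as well. Xist and Uty did not pass the filter. In whole tissue, fewer cells of a type and less RNA per cell cannot be told apart. No gene of 21422 passed an adjusted p of 0.05 in limma (0%), and 266 had an unadjusted p under 0.05.

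Aldh1a7 was the only gene of the synthesis list whose dark-reared values were both above both controls. No enzyme activity was measured, so its level is not a measure of retinoic acid synthesis. It is a rodent relative of Aldh1a1. Its level was -2.83 and -2.66 in dark-reared 1 and 2, against -3.86 and -4.26 in control 1 and 2. The lower dark-reared array thus lay above the higher control. The groups averaged -2.75 ± 0.13 and -4.06 ± 0.28 (SD, n = 2 each), a difference of 1.31 (SE 0.21), or 2.48-fold. It was 1.60 within the shared slide. The probe was well above background on all 4 arrays but dim: the processed signal, with the scanner software's own error, was 111 ± 12.3, 123 ± 13.4, 54.0 ± 7.11 and 39.9 ± 8.85. The size of the difference fell to 0.49 or 0.58 when the local background was corrected with normexp and an offset of 50. Across all genes tested, 0.429% had dark-reared values apart and higher by at least 1 log2 unit, and 0.77% had them apart and lower by as much. By any amount, 9.53% were apart and higher and 9.57% apart and lower, the shares to set beside the marker counts below. Most markers of cortex and hippocampus moved in the same direction between the groups. Of the 7, 6 were higher in dark-reared, 3 of them with the groups apart, at a median difference of 0.53. Their summed levels were 4.02, 3.59, 4.86 and 1.41. Control 1 was thus the highest sample for the markers' sum, and for 4 of the 7 markers, while Aldh1a7 was low there. Emx1 was the 1 marker that was lower in dark-reared, with a difference of -0.06. With the mean deviation of the 7 markers subtracted on each array, Aldh1a7 differed by 0.55. Choroid plexus markers moved further: all 9 were higher in dark-reared, 1 of them with the groups apart, at a median of 1.28 and of 2.44 within the shared slide. Their sums were 57.4, 28.0, 54.2 and 13.6, lowest in control 2. With their mean deviation subtracted Aldh1a7 differed by 0.09, but gaps of -0.43, 0.52, -1.34 and 1.25 were left on the 4 arrays. In closeness to Aldh1a7 over the arrays choroid plexus ranked 8 among the marker lists, and cortex and hippocampus ranked 1. Over all the lists, the subtracted difference ran from -1.08 (sex chromosomes) to 2.73 (hypothalamus). The 6 oligodendrocyte markers were all lower in dark-reared, 0 of them with the groups apart, at a median of -0.74, and summed to 489, 119, 523 and 305. The part of any of these cells in the Aldh1a7 difference was not tested.

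Aldh1a1 makes retinoic acid in several brain cell types, dopamine neurons of the midbrain among them. It stood at 1.68 and 0.82 in dark-reared 1 and 2, and at 1.84 and 1.07 in control 1 and 2. Dark-reared 1 and control 1 were the higher samples of their groups, and the groups overlapped. The difference of -0.21 (SE 0.43) was smaller than the gap of 0.86 between the dark-reared arrays. The 5 tested of 7 midbrain dopamine markers summed to 2.39, 2.53, 3.65 and 2.32, an order of samples other than that of Aldh1a1. In closeness to Aldh1a1 over the arrays this list still ranked 2 among the marker lists, after endothelium. Oligodendrocyte markers, with sums of 489, 119, 523 and 305, had the sample order of Aldh1a1 and ranked 6. The part of any of these cells in the Aldh1a1 levels was not tested.

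Aldh1a2, the enzyme of the meninges, varied mostly within the dark-reared group. Dark-reared 1 read -3.14 and dark-reared 2 read -0.66, while control 1 and 2 read -2.09 and -2.06. The dark-reared arrays lay 5.59-fold apart, one below and the other above both controls, which differed by 1.02-fold. The mean difference of 0.17 had an SE of 0.89, and leaving out dark-reared 1 or dark-reared 2 moved it to 1.41 or -1.07. Its range over the 4 arrays, 2.48, was wider than that of 98.1% of all genes tested. Of 9 meninges markers, all above background on the 4 arrays, 7 had their highest value in dark-reared 2 and 5 their lowest in dark-reared 1. Their summed levels were 9.89, 17.8, 13.8 and 11.1, so the samples at both ends were the same as for Aldh1a2. The part of the meninges in its levels was not tested.

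Aldh1a3, which makes retinoic acid in eye and nasal tissue among others, was well above background on 1 of the 4 arrays, dark-reared 2. The 4 levels were -6.01, -3.13, -5.67 and -6.44. The processed signal was 12.3, 88.1, 15.4 and 8.82. Dark-reared 2 was high, and dark-reared 1 lay below control 1. No fold is given for the group, since only 1 of its 2 arrays measured the gene.

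**Figure D1:**
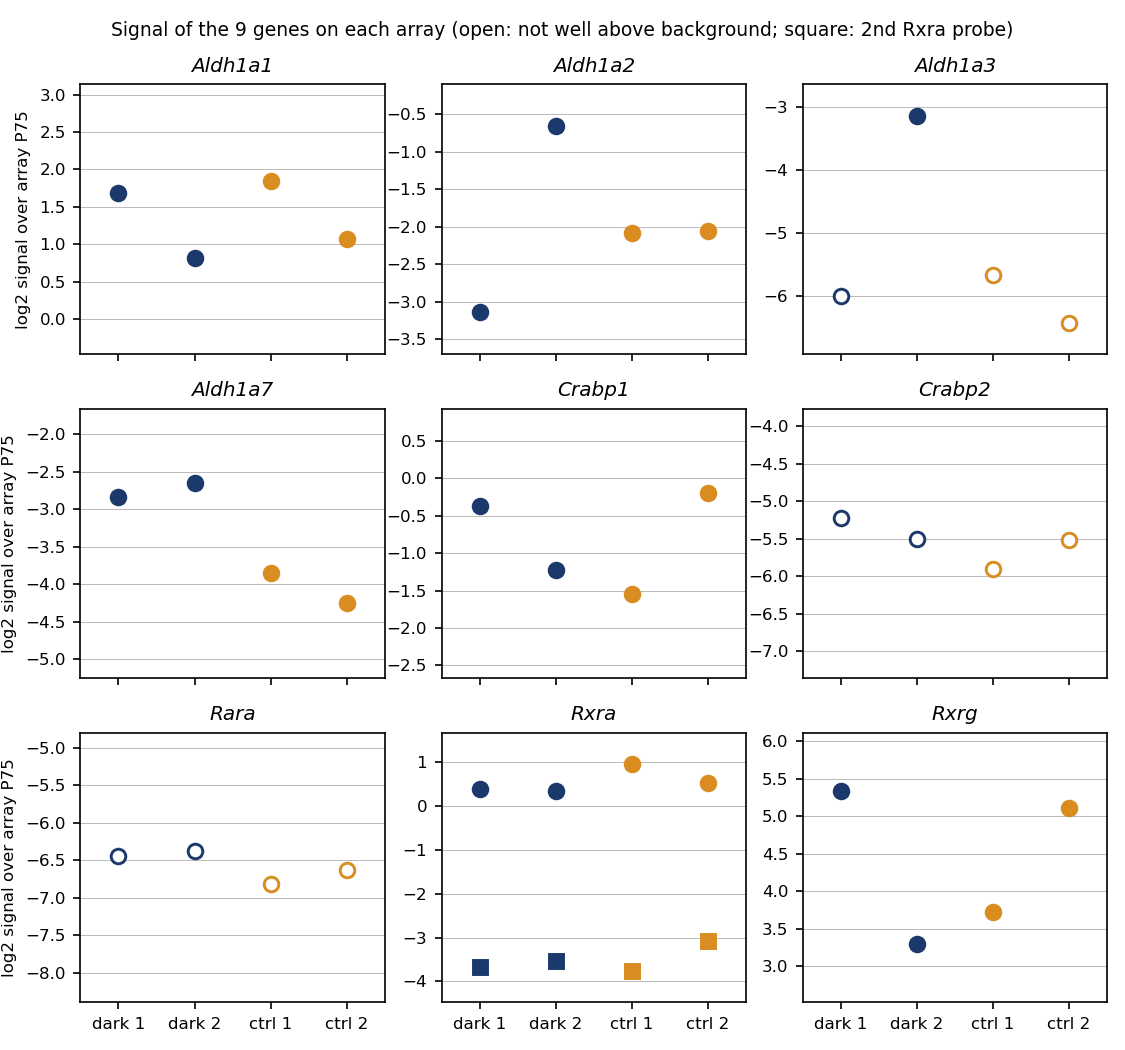
Log2 signal over the 75th percentile of the array for the 9 genes, 1 panel each. Each point is an array of the dark-reared or control group (n = 2 each). Open points were not well above background and squares are the second Rxra probe. Aldh1a7 lies at -2.83 and -2.66 against -3.86 and -4.26, and Rxrg and Aldh1a2 differ more within a group than between groups.

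The binding protein Crabp1 limits the free retinoic acid in a cell. The 4 arrays read -0.38, -1.23, -1.54 and -0.20. Dark-reared 1 and control 2 were high and the other samples low, so the groups overlapped fully. The mean difference was 0.07 (SE 0.58), and within the shared slide it was -1.03, the opposite direction. Microglia markers came nearest to this order of the 13 marker lists examined: the 5 markers summed to 13.8, 10.3, 9.44 and 14.6. The root mean square difference of centred levels was 0.29 for microglia and 0.33 for striatum, the next list. As deviations from the 4-array mean Crabp1 ran 0.46, -0.39, -0.70 and 0.63. The microglia mean ran 0.24, -0.21, -0.33 and 0.30, and the striatum mean 0.90, -0.88, -0.66 and 0.63. The part of microglia or striatal tissue in the Crabp1 levels was not tested.

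Crabp2, which passes retinoic acid on to RAR receptors, reached the well-above-background call on 0 of 4 arrays, at -5.22, -5.51, -5.90 and -5.51. No fold is given for it, because the signal over background sets the limit.

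Rxrg, the retinoid X receptor gamma gene, was the receptor with the widest spread. Its level was 5.33 and 3.30 in dark-reared 1 and 2, and 3.73 and 5.10 in control 1 and 2. It was high in 1 sample of each group and low in the other. The dark-reared arrays differed 4.10-fold and the controls 2.59-fold, while the group means differed by -0.10 (SE 0.88). Within the shared slide the difference was -1.81. Its range of 2.03 was wider than that of 96.6% of genes tested.

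The striatum markers followed the same order of samples. Drd1, Drd2, Adora2a, Ppp1r1b, Rgs9 and Pde10a, genes of striatal projection neurons, summed to 127, 35.2, 44.1 and 98.5. As deviations from their 4-array means, Rxrg ran 0.97, -1.07, -0.64 and 0.74 and the mean of the 6 markers 0.90, -0.88, -0.66 and 0.63. The largest gap between the 2 lines on an array was 0.19. The markers' median difference between the groups was 0.018, and -1.53 within the shared slide. The part of striatal tissue in the Rxrg levels was not tested.

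Rarb, the receptor whose promoter element is printed above, is not one of the 9 genes and was named after its values were seen. It read 3.87 and 2.46 in dark-reared 1 and 2, and 2.36 and 3.65 in control 1 and 2. The same samples were high as for Rxrg. As deviations Rarb ran 0.79, -0.63, -0.73 and 0.56, and the groups differed by 0.16 (SE 0.69). Within the shared slide the difference was -1.19, and it was -0.54 without dark-reared 1 and -0.48 without control 1. Its probe was spotted 10 times on each array, with 9 spots left in control 1, which gives the repeat error of a spot within an array. The SD over spots was 0.047, 0.051, 0.022 and 0.040. The dark-reared arrays, which also differ in tissue sample, lay 1.41 apart.

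**Figure D2:**
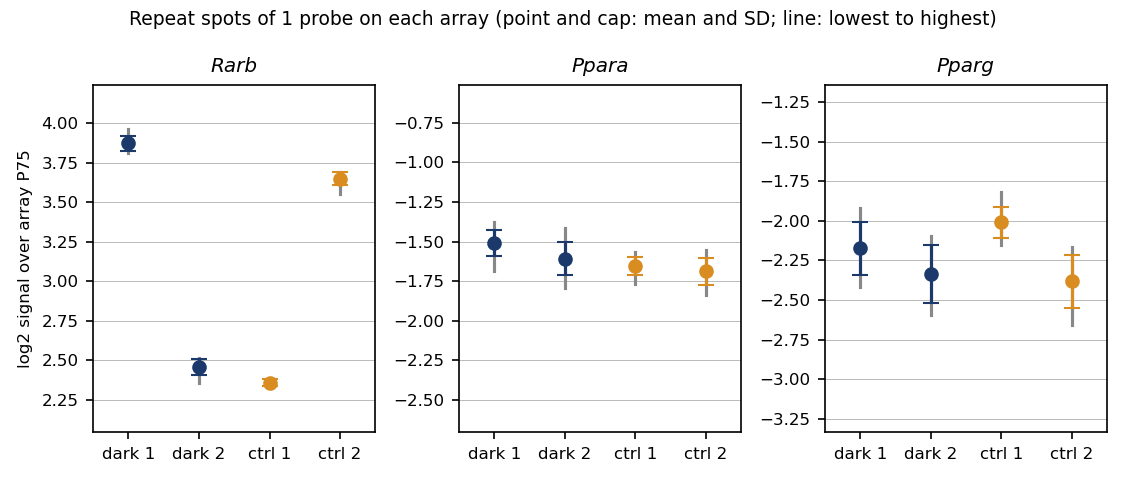
Repeat spots of Rarb, Ppara and Pparg on the 4 arrays, as log2 signal over the array's 75th percentile. Points and caps are the mean and SD over spots, and lines run from the lowest to the highest spot. Rarb spots cluster within each array with an SD of at most 0.051 while the arrays span 2.36 to 3.87, and Ppara and Pparg, which pair with RXR, have array means that span 0.18 and 0.37.

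Rxra, another RXR receptor, had dark-reared values below both controls on its brighter probe: 0.38 and 0.33 against 0.96 and 0.52. The difference was -0.38 (SE 0.21), and -0.19 within the shared slide. Groups that did not overlap were common: 9.57% of all genes tested had dark-reared values apart and lower, and 9.53% apart and higher. The dimmer second probe read -3.67, -3.54, -3.77 and -3.07, so on it the groups overlapped, and the difference was -0.18. The probes thus disagree on whether the groups are apart. Of the marker lists, midbrain dopamine neurons came nearest to the brighter Rxra probe over the arrays. With the mean deviation of those markers subtracted, Rxra differed by 0.035. Over all the lists, the subtracted difference ran from -2.77 (sex chromosomes) to 1.03 (hypothalamus). The part of any of these cells in the Rxra difference was not tested.

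Rara, the retinoic acid receptor alpha gene, was likewise below that call on all 4 arrays. Its single probe read -6.44, -6.38, -6.82 and -6.63. No direction is read from values below background.

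**Figure D3:**
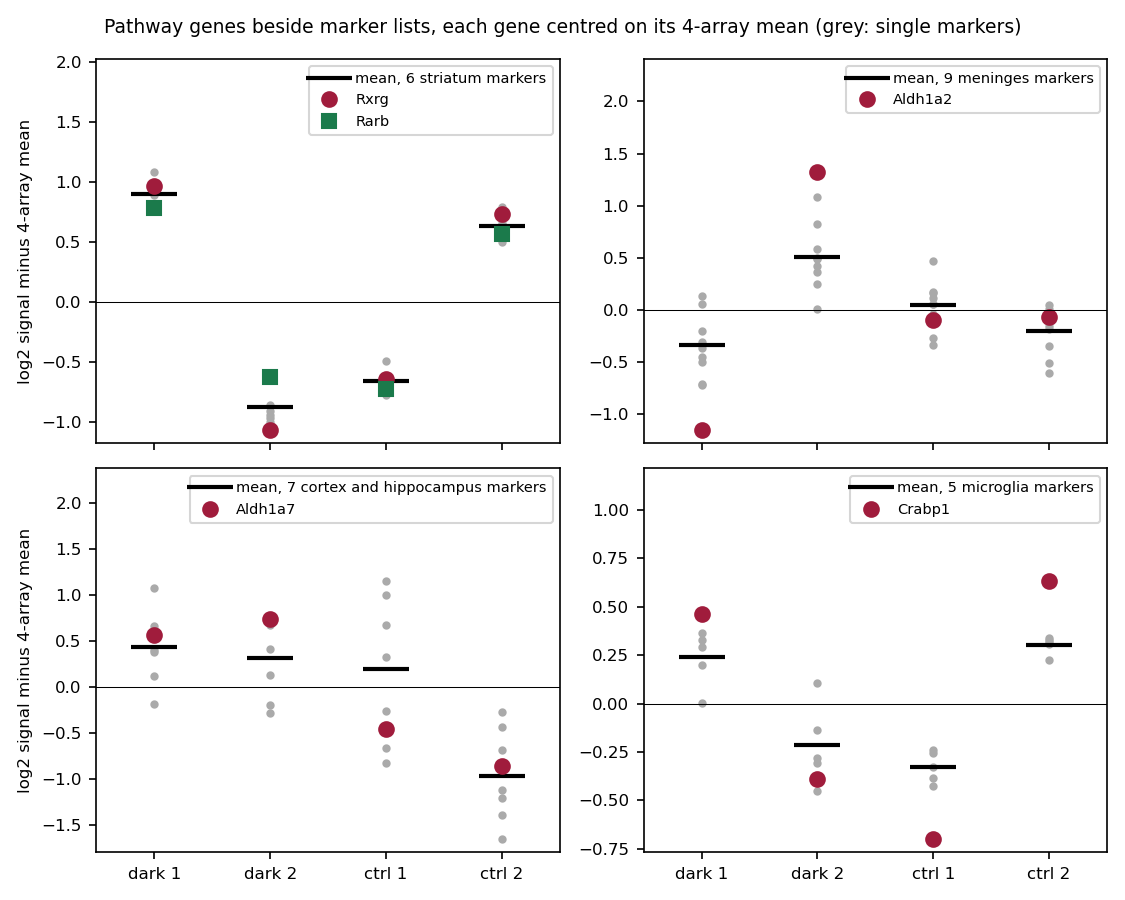
Deviation from the 4-array mean (log2) of Rxrg and Rarb with the striatum markers, Aldh1a2 with the meninges markers, Aldh1a7 with the cortex and hippocampus markers and Crabp1 with the microglia markers, by array; list lines are means over the markers tested. The lists shown were paired with the genes after their values were seen. Rxrg and the striatum line run within 0.19 of each other, while Aldh1a7 is negative in control 1 (-0.46) where the cortex and hippocampus line is positive (0.20).

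Over the 6 tested genes of the family, 3 were higher in dark-reared and 3 lower, 1 with groups apart in each direction (16.7% each, beside 9.53% and 9.57% of all genes), at a median difference of -0.02. All genes tested had a median of -0.01. Their ranges over the arrays ran from 0.63 for Rxra to 2.48 for Aldh1a2, against a median of 0.42 for all genes tested. For 4 of the 6 (Aldh1a1, Aldh1a2, Crabp1 and Rxrg) the sign of the difference changed when 1 array was left out. Aldh1a1 was at 0.23 without dark-reared 2 and 0.18 without control 1. Crabp1 was at -0.60 without control 1 and -0.36 without dark-reared 1. Rxrg was at 0.92 without dark-reared 2 and 0.59 without control 2, and Aldh1a2 turned only without dark-reared 2. Aldh1a7 and Rxra kept their signs, as they had to, because their groups were apart on the probe used.

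The genes nearest in pattern to each widely varying member were found by the root mean square (RMS) difference of centred log2 values over the 4 arrays, among 13527 named genes above background on all of them. Nearest to Rxrg were Actn2 (RMS 0.03), Serpina9 (0.05) and Cyp2c23 (0.05). For Aldh1a7 they were Fezf2 (0.16), Rspo2 (0.20) and Tbr1 (0.25), of which Fezf2 and Tbr1 are among the cortex and hippocampus markers. Of the 7 markers in that list, 4 were highest in control 1, where Aldh1a7 was low. For Aldh1a2, Tcerg1l (0.16) and Lypd6b (0.19) were among the 3 nearest. For Crabp1 they were Ryr1 (0.05), Nab2 (0.07) and Hvcn1 (0.08), and for Aldh1a1 Micall1 (0.03), Krt16 (0.03) and Cilk1 (0.05). Rarb stood at 0.26 from Rxrg, and at 0.20 from Crabp1.

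The pathway's other genes were taken from a list of 41, of which Cyp26c1 and Fabp5 had no named probe and 10 more did not pass the filter. Of the 29 tested, 18 were higher in dark-reared and 11 lower, and 0 passed the adjusted test. The median difference was 0.10, and -0.047 within the shared slide. The groups were apart and higher for 5 (17.2%) and apart and lower for 1 (3.45%), beside 9.53% and 9.57% of all genes.

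In retinol supply and conversion, 8 of 12 genes were tested, 6 higher and 2 lower, at a median of 0.21. Rbp2, an intestinal retinol carrier, read -4.72, -2.48, -5.02 and -4.40. Dark-reared 2 alone was high, and the difference of 1.11 (SE 0.84) became -0.012 without it. On a second Rbp2 probe only control 1 was well above background, and that probe did not pass the filter. Adh1, an alcohol dehydrogenase that can oxidise retinol, read -3.47, -2.17, -3.12 and -4.03, and its groups overlapped at 0.75 (SE 0.58). Dark-reared 2 was the high array for Aldh1a2 and Aldh1a3 as well.

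The breakdown enzyme Cyp26b1 was the only tested gene of 3. It read 0.00, 0.73, 0.45 and 0.45, and the controls fell between the dark-reared arrays, with a difference of -0.08 (SE 0.30).

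Among the receptors outside the family's 9 genes, Rarg read -3.52, -4.52, -3.66 and -3.76, a difference of -0.30 (SE 0.38). Rxrb, the third RXR gene, read 1.89, 1.26, 1.61 and 1.88, a difference of -0.17 (SE 0.28). For both, the lowest array was dark-reared 2 and the groups overlapped. A second, dimmer Rxrb probe, well above background on 4 arrays, differed by 0.16, the opposite direction.

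Of the 10 partner receptors of RXR, 8 were tested, 4 higher and 4 lower, at a median of -0.02. Nr4a2, a partner needed by midbrain dopamine neurons, read -0.67 and -0.51 in dark-reared against -0.10 and 0.82 in control. It was the 1 pathway gene whose dark-reared values were both below both controls, with a difference of -0.95 (SE 0.36), and its adjusted p in limma was 1.00. The 5 tested midbrain dopamine markers were lower in 4 cases and higher in 1, and their part in the Nr4a2 difference was not tested. Thrb, the thyroid hormone receptor beta gene, read 0.54, -0.28, -0.65 and 0.17. It was high in dark-reared 1 and control 2, as Rxrg was, and its difference was 0.37 (SE 0.44).

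Of the 6 co-regulators that RAR and RXR recruit, all were tested, 4 higher and 2 lower. Ncoa2, a coactivator, differed by 0.19 (SE 0.15) and Ncor1, a corepressor, by 0.15 (SE 0.17). Dimmer Ncoa2 probes differed by -0.18 and 0.19, so the probes disagree on its direction. Of 6 genes known to respond to retinoic acid, 3 were tested and all 3 were higher. Tgm2, a transglutaminase, read -0.14, 0.57, -0.24 and -0.31, with both dark-reared values above both controls and a difference of 0.49 (SE 0.29). Rarres1 differed by 0.13 (SE 0.14), and the remaining gene by 0.036 (SE 0.31) with its groups overlapping. None of these passed the adjusted test.

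**Figure D4:**
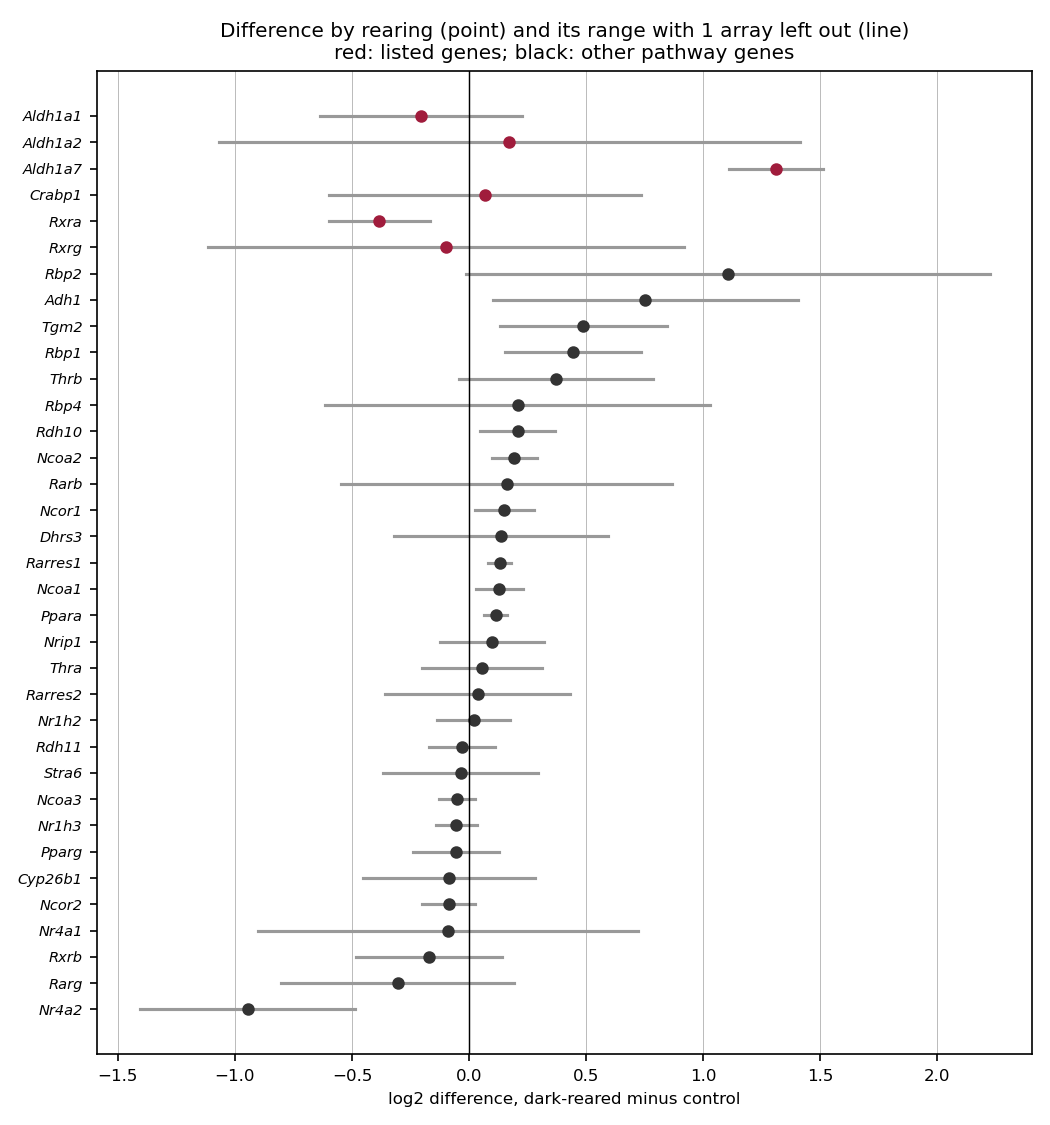
Dark-reared minus control difference (log2) of the 6 tested members and the 29 other pathway genes, with a line for the range over the fits that leave out 1 array. Aldh1a7 stays positive (1.11 to 1.51) and Nr4a2 and Rxra negative, while the lines of Rxrg (-1.12 to 0.92) and Aldh1a2 (-1.07 to 1.41) cross 0. The groups of Aldh1a7, Nr4a2 and Rxra do not overlap, so leaving out 1 array could not change their signs.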

How the data were processed

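Total RNA of 4 samples was hybridised to one-colour Agilent arrays, 1 per sample. Per the file headers, Agilent Feature Extraction 10.7.3.1 made each spot's intensity before deposit (the submitters' processing notes give 10.7). Its processed signal is a background-subtracted intensity of 1 array. The log2 values the authors deposited for each probe had a median of 6.84 on every array, and the sources used here do not give their normalization; they served as an alternative. Outlier spots (79 to 103 per array) were dropped and repeat spots averaged. Levels are log2 minus the array's 75th percentile. RefSeq accessions gave 26918 probes a symbol (GRCm38.p6, used for names and promoter sequences; the array annotation is older). The filter kept 28439 probes that were well above background in both samples of a group, and the brightest probe stood for a gene. The comparison used R 4.3.3 and limma 3.58.1: lmFit, then eBayes, with two-sided p-values adjusted by Benjamini-Hochberg over 21422 genes at a threshold of 0.05. The scripts were tested on simulated data. The number of arrays and the signal over background limit precision.

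The members and gene lists were chosen with earlier results of these data known. Every member was named. Other pathway genes were named where the difference was among the 2 largest of their list, or where the groups did not overlap and differed by at least 1 log2 unit. The 3 nearest genes were given for members with a range of at least 1. Marker lists came from the same hand-written tables. One listed striatum marker and 1 gene near Aldh1a2 in pattern are not reported here. Alternatives were the filter (none, or all 4 arrays), scaling, normexp background correction (offset 50, on median spot signals), the deposited log2 values, the shared slide, the replicate block and leaving out each array.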

Additional observations from a re-analysis of the deposited data

How the results depend on the processing

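Limma called 0 genes under every setting that allowed a test; within slide 3, with 1 array a group, there was none. The members' median difference of -0.02 ran from -0.38 (without dark-reared 1) to 0.39 (without control 2) when 1 array was left out, and was 0.17 with no filter, -0.22 within slide 3. The other pathway genes' median of 0.10 ran from -0.020 (without control 1) to 0.20 (without control 2) when 1 array was left out, and was -0.035 with no filter and -0.047 within slide 3. Within slide 3 the sign changed for Crabp1 (-1.03), Thrb (-0.45), Cyp26b1 (0.28), Rarb (-1.19) and Ncor1 (-0.0095). Leaving out 1 array changed the sign for Aldh1a1 (-0.64 to 0.23), Aldh1a2 (-1.07 to 1.41), Crabp1 (-0.60 to 0.74), Rxrg (-1.12 to 0.92), Thrb (-0.041 to 0.79), Cyp26b1 (-0.45 to 0.28), Rarg (-0.80 to 0.19), Rxrb (-0.48 to 0.14), Rarb (-0.54 to 0.87) and Rbp2 (-0.012 to 2.22). The cause was not tested. Aldh1a7 was at 0.49 with normexp and up to 1.60 within slide 3. Its groups were apart, so leaving out 1 array, the shared slide, the replicate block and the filters could not change its sign. The settings that changed its signal or scaling could have, and its difference stayed positive in them.

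The labels do not say whether same-numbered samples are pairs. Their deviations from their group means correlated at -0.16 over genes, which with 2 samples a group cannot decide it. The fit with the replicate block called 0 genes, gave 271 an unadjusted p under 0.05, and left the members' median at -0.02. The crossed pairing, added after seeing the data, called 0 genes and gave 433 an unadjusted p under 0.05. Slide as a fixed term could not be fitted, since no residual degrees of freedom remained. Levels near background, as for Crabp2 and Rara, are limited by the signal over background.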
